A study of Rattus norvegicus with 20 samples.

Results

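The mRNAs of 31 cholesterol and fatty acid synthesis genes were measured in the hippocampus of 20 female rats at 4 months of age. By the paper's methods, rats were food-restricted for a radial arm maze test at 4 months, when some were taken for sequencing. The feeding state of each sequenced rat is not given, and its part in these levels was not tested. The genes were listed by symbol for what they encode, with no measured value in the rule, and all 31 were present among the 17168 genes of the RNAseq tables. They held 8 genes of the mevalonate steps, 12 genes of the squalene and sterol steps, 6 genes of sterol sensing and transport, and 5 genes of fatty acid synthesis and desaturation. Every rat had at least 27 counts for each of these genes, so none was left out by a filter on low counts.

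Cholesterol is built from acetyl-CoA through mevalonate, isoprenoid pyrophosphates, squalene and lanosterol. When sterols run low in the endoplasmic reticulum, SCAP escorts the SREBP proteins (encoded by Srebf1 and Srebf2) to the Golgi for cleavage, and the released factors switch on nearly all of these genes, while INSIG proteins hold SCAP back when sterols are plentiful. The blood-brain barrier keeps out circulating cholesterol, so the brain makes its own, chiefly in astrocytes and in the oligodendrocytes that wrap axons in myelin.

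The genotype comparison held 5 untreated Wild-Type rats (WTNT) and 5 untreated TgF344-AD rats (TGNT), which carry the human Swedish amyloid precursor protein (APPsw) and the human presenilin-1 without exon 9 (PS1-∆E9), both under the prion promoter. The treatment comparison held 4 further TGNT rats and 6 TgF344-AD rats (TGTR) fed diazoxide, an opener of ATP-sensitive potassium channels, and dibenzoylmethane, a relative of curcumin (DZ/DIB), in chow from the age of 52 days, so that all 10 of its rats carried both transgenes, and no treated Wild-Type rat was sequenced. Each rat gave 1 library, and the tables of the 2 comparisons were normalized apart. Levels are given as RPM, the read counts of a library scaled by the authors to a common total with TMM factors, within a table. They are not divided by gene length, so that they compare rats for 1 gene but not genes with each other.

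Library totals were 5848458 to 9926088 estimated counts in the genotype comparison and 9215039 to 14175594 in the treatment comparison. App, the gene of the amyloid precursor protein, checked the genotype labels. It was at 1031 to 1160 RPM in the WTNT rats and 2071 to 2364 RPM in the TGNT rats of the same comparison. In the 10 rats of the treatment comparison it was at 2216 to 2757 RPM. App cannot check the treatment labels, since its log2 fold change in TGTR against TGNT rats was 0.034. Some libraries stood apart in the transcripts of cells next to the hippocampus. The summed RPM of 8 choroid plexus markers was 2855 in TGTR rat 5 and 137 in TGTR rat 6, against 3.46 to 17.9 in the other 8 rats of that table, and Ttr, the choroid plexus gene of transthyretin, had 24768 and 1326 counts in these 2 rats against 10 to 127 in the others. The summed RPM of 3 blood markers was 1286 in TGTR rat 4 and at most 258 in the other rats.

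In the genotype comparison, transcripts of the sterol pathway differed little between TGNT and WTNT rats, and most fold changes that were seen lay above 1. The largest was that of Hsd17b7, at 1.27-fold. In edgeR's quasi-likelihood fit of the 17168 genes, 0 of the 31 genes passed the thresholds of an adjusted p under 0.05 and at least 1.5-fold, against 0.0116% of all genes. The 95% intervals of 29 of the 31 genes lay wholly within 1.5-fold in either direction, and those of Mvd and Hsd17b7 reached beyond it. At an unadjusted p under 0.05, 4 of the 31 genes were higher in TGNT rats and 0 were lower, against 1.72% and 1.5% of all genes. Among the 9473 genes with a mean count at least that of the lowest of the 31, these shares were 1.87% and 1.90%. The median size of the log2 fold changes, regardless of sign, was 0.088 for the 31 genes and 0.065 for those 9473. None of the 4 passed adjustment: the adjusted p was 1 for each of the 31 genes, and 82 genes of the table had a lower p than the lowest of them. The count was 2, Fdft1 and Insig1, when TGNT rat 3 or WTNT rat 4 was left out, and 6 when TGNT rat 2 was left out.

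**Figure D1:**
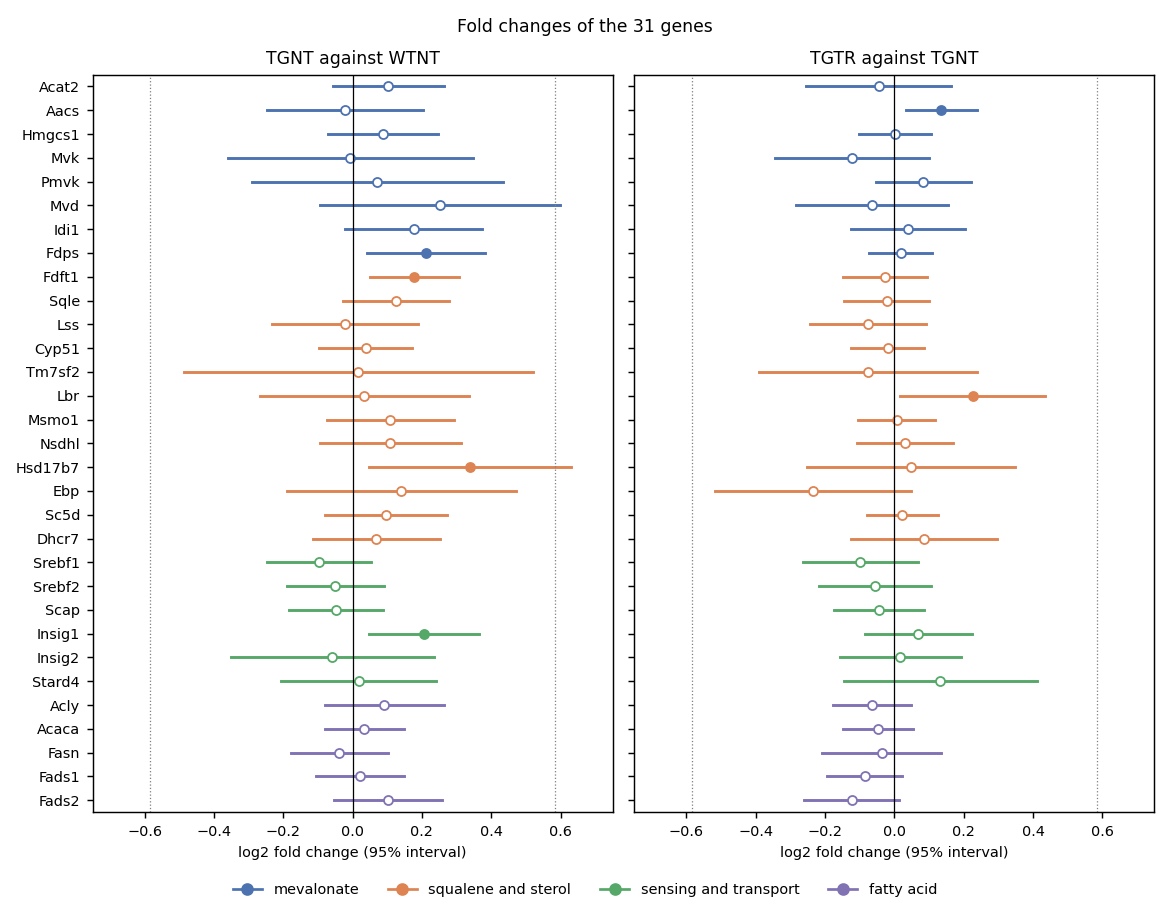
Log2 fold changes of the 31 genes from the quasi-likelihood fits (points) with their 95% intervals (bars), for TGNT against WTNT rats on the left and TGTR against TGNT rats on the right, coloured by role. Filled points have an unadjusted p under 0.05, 4 on the left and 2 on the right, and the dotted lines mark 1.5-fold, which 2 intervals on the left cross.

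Fdft1 encodes squalene synthase, which joins farnesyl pyrophosphates into squalene and commits the pathway to sterols. It was at 102, 117, 116, 109 and 101 RPM in WTNT rats 1 to 5 and 126, 120.5, 129, 121 and 119 RPM in TGNT rats 1 to 5. Every TGNT rat was above every WTNT rat, and Fdft1 was the only one of the 31 genes whose groups did not overlap, against 0.268% of all genes with TGNT rats wholly above and 0.245% wholly below (0.274% and 0.327% of the 9473). Its means were 109 ± 7.35 RPM in WTNT and 123 ± 4.43 RPM in TGNT rats (SD, n = 5 each), and the log2 fold change was 0.18 (SE 0.0605, 95% interval 0.049 to 0.31). The unadjusted p was 0.0101 by the quasi-likelihood test and 0.00794 by an exact two-sided permutation test of RPM, the smallest that 5 against 5 rats can give.

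Fdps encodes farnesyl pyrophosphate synthase, the last step before the squalene branch. It was at 38.9, 39.99, 43.7, 34.5 and 39.03 RPM in WTNT rats 1 to 5 and 49.7, 43.6, 48.5, 39.8 and 44.9 RPM in TGNT rats 1 to 5. TGNT rats 1, 3 and 5 were above every WTNT rat, while TGNT rats 2 and 4 lay within the WTNT range. The log2 fold change was 0.21 (SE 0.0799, 95% interval 0.040 to 0.38), with an unadjusted p of 0.0187 by the quasi-likelihood test (exact permutation p = 0.0397).

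Insig1 encodes the endoplasmic reticulum protein that retains SCAP, and is itself switched on by SREBP. It was at 115, 129.6, 138, 109.6 and 109.9 RPM in WTNT rats 1 to 5 and 137, 127, 149, 140.3 and 139 RPM in TGNT rats 1 to 5. TGNT rat 3 was the highest, 3 TGNT rats were above every WTNT rat, and WTNT rats 2 and 3 overlapped with the transgenic rats. The log2 fold change was 0.21 (SE 0.0738, 95% interval 0.049 to 0.36), with an unadjusted p of 0.0136 by the quasi-likelihood test (exact permutation p = 0.0556).

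Hsd17b7, which reduces the 3-keto group of sterol intermediates after their demethylation, was counted by few reads. It was at 6.30, 8.18, 6.72, 6.83 and 8.92 RPM in WTNT rats 1 to 5 and 9.49, 7.54, 10.1, 9.34 and 10.1 RPM in TGNT rats 1 to 5. TGNT rat 2 lay within the WTNT range and the other 4 TGNT rats were above it. The log2 fold change was 0.34 (SE 0.137, 95% interval 0.047 to 0.63), with an unadjusted p of 0.0258 by the quasi-likelihood test (exact permutation p = 0.0397). Its estimated counts were fractional in all 10 rats, as they are when reads that match more than 1 gene are divided among them, so its level is less certain than those of the 27 genes with whole counts in every rat.

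**Figure D2:**
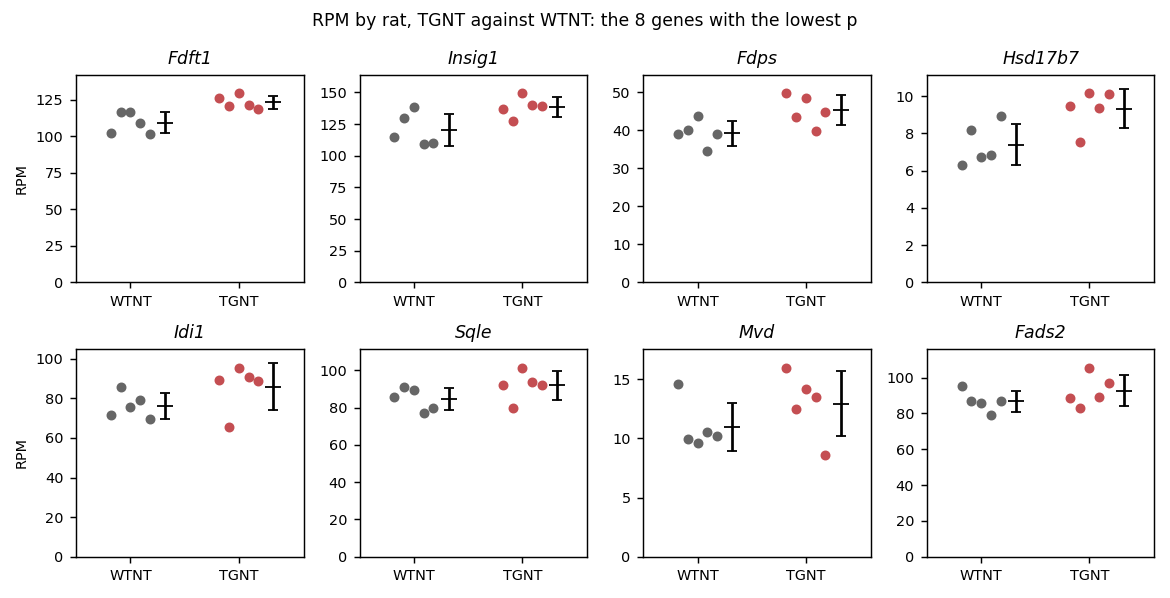
RPM (vertical axes, from 0) of the 8 genes with the lowest p in the genotype comparison, 1 point per rat in rat order, with WTNT in grey, TGNT in red, and the mean and SD of each group in black. The groups are apart for Fdft1, with WTNT rats at 101 to 117 and TGNT rats at 119 to 129 RPM, and overlap for the other 7 genes.

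The RefSeq promoter table (build GRCr8) held a window for 25 of the 31 genes, from 250 bases before the gene's start to 50 bases after it. Sqle, Fdft1, Pmvk, Stard4, Fasn and Acaca had no entry. SREBP binds DNA weakly alone and acts with NF-Y and Sp1 bound nearby, so the letters of these 3 factors' motifs were searched on both strands. CCAAT, the letters bound by NF-Y, was in 19 of the 25 genes (76.0%) and in 37.5% of all 33469 windows. GGGCGG, those bound by Sp1, was in 21 (84.0%) and in 33.1% of all windows. A sterol regulatory element written as TCACNCCAC was in 0 of the 25 genes and in 1.12% of all windows. With so small a share, 0 of 25 does not set these genes apart, and other spellings of the element were not searched. No match of CCAAT overlapped with one of GGGCGG in these genes. The 3 genes of the preceding paragraphs that have an entry are shown, since they had the lowest p among those with one. Each run is the 250 bases before the start, 5′ to 3′ on the gene's own strand, and capitals mark CCAAT read on either strand.

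Insig1, chr4:8057770-8058019, strand minus: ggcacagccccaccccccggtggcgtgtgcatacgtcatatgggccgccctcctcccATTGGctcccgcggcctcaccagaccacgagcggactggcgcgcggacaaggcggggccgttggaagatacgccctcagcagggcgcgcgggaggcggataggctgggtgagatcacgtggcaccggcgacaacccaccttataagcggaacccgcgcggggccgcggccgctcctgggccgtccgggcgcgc
Fdps, chr2:176804817-176805066, strand minus: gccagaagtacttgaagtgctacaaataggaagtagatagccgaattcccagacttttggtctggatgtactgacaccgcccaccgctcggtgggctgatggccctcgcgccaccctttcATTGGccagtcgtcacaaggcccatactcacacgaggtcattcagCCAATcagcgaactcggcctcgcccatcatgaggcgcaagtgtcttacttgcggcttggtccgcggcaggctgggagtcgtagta
Hsd17b7, chr13:84722755-84723004, strand minus: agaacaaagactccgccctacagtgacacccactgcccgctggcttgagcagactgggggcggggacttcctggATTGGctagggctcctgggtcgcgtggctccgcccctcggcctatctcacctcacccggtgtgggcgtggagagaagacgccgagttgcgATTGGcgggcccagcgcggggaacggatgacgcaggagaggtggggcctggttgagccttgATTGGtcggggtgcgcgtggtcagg

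Insig1 holds a single capitalised match, Fdps 2 and Hsd17b7 3. Idi1, which is described next, holds 2 matches of CCAAT and 0 of GGGCGG.

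**Figure D3:**
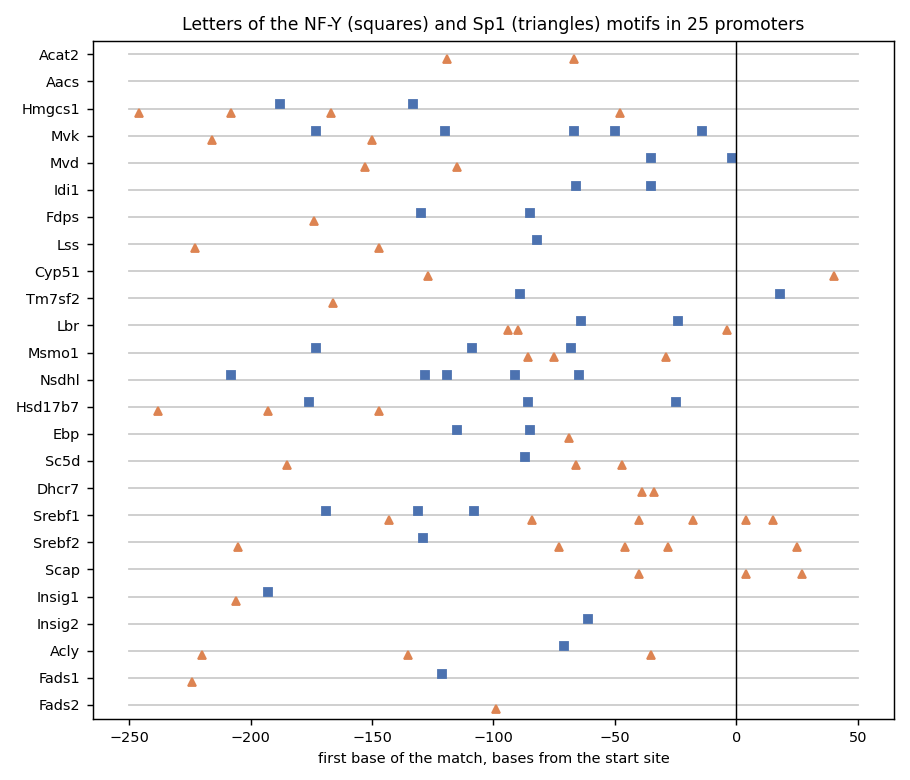
Position of each match of CCAAT (NF-Y, squares) and GGGCGG (Sp1, triangles) in the promoter windows of 25 genes, in bases from the gene's start (horizontal axis, start at 0), with both windows of Srebf1 on 1 line. Squares stand in 19 genes and triangles in 21, and Aacs has neither.

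Over all 8 mevalonate genes, Fdps included, 6 had fold changes above 1 in TGNT rats and the median log2 fold change was 0.096, against 0.0037 for all genes with a mean count at least that of the lowest of the 31. Idi1, whose enzyme isomerises isopentenyl pyrophosphate, was at 71.6, 85.9, 75.6, 79.2 and 69.3 RPM in WTNT rats 1 to 5 and 89.4, 65.6, 95.4, 90.6 and 88.6 RPM in TGNT rats 1 to 5. TGNT rat 2 was below every WTNT rat and the other 4 TGNT rats were above all of them (log2 fold change 0.18, SE 0.0932, 95% interval -0.022 to 0.37, quasi-likelihood p = 0.0778, exact permutation p = 0.159). Mvd, which makes isopentenyl pyrophosphate by decarboxylation, was at 14.6, 9.92, 9.64, 10.6 and 10.2 RPM in WTNT rats 1 to 5 and 15.98, 12.5, 14.2, 13.5 and 8.60 RPM in TGNT rats 1 to 5. Its groups overlapped across nearly their whole range, with WTNT rat 1 apart from the other WTNT rats and TGNT rat 5 the lowest of all (log2 fold change 0.25, SE 0.163, 95% interval -0.093 to 0.60, quasi-likelihood p = 0.14, exact permutation p = 0.222).

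Hmgcs1, the cytosolic HMG-CoA synthase that feeds the pathway, was at 608, 637, 742, 559 and 676 RPM in WTNT rats 1 to 5 and 694, 622, 746, 688 and 661 RPM in TGNT rats 1 to 5. WTNT rat 3 and TGNT rat 3 were nearly level at the top, and WTNT rat 4 was the lowest. The log2 fold change was 0.088 (SE 0.0740, 95% interval -0.070 to 0.25), with a quasi-likelihood p of 0.254 (exact permutation p = 0.341). The remaining mevalonate genes had log2 fold changes of 0.10 for Acat2, the cytosolic thiolase that condenses acetyl-CoA, 0.071 and -0.0066 for Pmvk and Mvk, the kinases of the pathway, and -0.022 for Aacs, which activates the ketone body acetoacetate for lipid synthesis. Their intervals all spanned 0.

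Of the 12 squalene and sterol genes, 11 had a fold change above 1 and 1, Lss, did not, with a median log2 fold change of 0.10. Over all 31 genes the corresponding count was 23 above and 8 below, against 44.3% of all genes above 1 and 51.7% of the genes with a mean count at least that of the lowest of the 31. The genes of this pathway are switched on by the same factors and so are not independent of each other. Sqle, the squalene epoxidase that introduces the first oxygen, was at 85.7, 91.02, 89.5, 77.3 and 79.8 RPM in WTNT rats 1 to 5 and 92.4, 79.9, 101, 93.96 and 92.2 RPM in TGNT rats 1 to 5. TGNT rat 2 lay within the WTNT range and the other 4 TGNT rats were above it, though by little (log2 fold change 0.12, SE 0.0715, 95% interval -0.028 to 0.28, quasi-likelihood p = 0.103, exact permutation p = 0.119).

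The remaining genes of these steps had unadjusted p-values above 0.05 and intervals that spanned 0. Lss, whose enzyme closes the rings to lanosterol, had a log2 fold change of -0.021 (interval -0.23 to 0.19), and Cyp51, the lanosterol demethylase, one of 0.038 (interval -0.096 to 0.17). Msmo1 and Nsdhl, which remove the methyl groups at carbon 4, had 0.11 and 0.11. Ebp, the sterol isomerase, Sc5d, the desaturase, and Dhcr7, the last reductase, had 0.14, 0.097 and 0.069. The paired sterol reductases Tm7sf2 and Lbr had 0.017 and 0.034, with the interval of Tm7sf2 running from -0.49 to 0.52, the widest of the 31 in this comparison.

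Unlike Insig1, 4 of the other 5 genes of sensing and transport had fold changes below 1 in TGNT rats. Srebf2, which encodes the SREBP that chiefly drives cholesterol synthesis, was at 387, 359.7, 316, 344 and 349.7 RPM in WTNT rats 1 to 5 and 374, 350.2, 328, 326 and 311 RPM in TGNT rats 1 to 5. TGNT rat 5 was the lowest and WTNT rat 1 the highest, with the other rats intermixed (log2 fold change -0.050, SE 0.0655, 95% interval -0.19 to 0.090, quasi-likelihood p = 0.459, exact permutation p = 0.413). Srebf1, whose SREBP-1c form chiefly drives fatty acid synthesis, was at 52.5, 51.4, 50.5, 46.6 and 42.7 RPM in WTNT rats 1 to 5 and 44.1, 45.4, 44.4, 44.8 and 48.3 RPM in TGNT rats 1 to 5. WTNT rats 1 to 3 were above all TGNT rats and WTNT rat 5 was below them (log2 fold change -0.097, SE 0.0704, 95% interval -0.25 to 0.053, quasi-likelihood p = 0.189, exact permutation p = 0.127). Its estimated counts were fractional in every rat as well. Scap and Insig2 had log2 fold changes of -0.049 and -0.058, and Stard4, a carrier of cholesterol between membranes, 0.017, so that 2 of the 6 genes of this role were higher in TGNT rats.

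Among the fatty acid genes, 0 of 5 had an unadjusted p under 0.05, and the log2 fold changes ran from -0.038 to 0.10. Fads2, the delta-6 desaturase of polyunsaturated fatty acids, was at 95.3, 87.03, 85.7, 79.03 and 86.8 RPM in WTNT rats 1 to 5 and 88.8, 82.9, 105, 89.3 and 96.9 RPM in TGNT rats 1 to 5. TGNT rats 3 and 5 were above every WTNT rat, and the other 3 lay within the WTNT range (log2 fold change 0.10, SE 0.0732, 95% interval -0.054 to 0.26, quasi-likelihood p = 0.184, exact permutation p = 0.262). Fads1, the delta-5 desaturase, was at 294, 268, 262, 252 and 285 RPM in WTNT rats 1 to 5 and 279, 256, 293, 282 and 264 RPM in TGNT rats 1 to 5. All TGNT rats lay within the WTNT range (log2 fold change 0.021, SE 0.0598, 95% interval -0.11 to 0.15, quasi-likelihood p = 0.727, exact permutation p = 0.794). Its sign turned when WTNT rat 3, WTNT rat 4 or TGNT rat 3 was left out.

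Fasn, the fatty acid synthase that makes palmitate, was at 427, 390.3, 351, 386 and 396 RPM in WTNT rats 1 to 5 and 409, 394, 388, 361 and 341 RPM in TGNT rats 1 to 5. The groups overlapped, with WTNT rat 1 the highest and TGNT rat 5 the lowest (log2 fold change -0.038, SE 0.0654, 95% interval -0.18 to 0.10, quasi-likelihood p = 0.572, exact permutation p = 0.524). Acly, which supplies acetyl-CoA from citrate, and Acaca, the acetyl-CoA carboxylase, had log2 fold changes of 0.091 and 0.034.

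Some rats were often at an end of the range. WTNT rat 4 was the lowest of the 10 rats in 14 of the 31 genes, Hmgcs1, Fdps and Sqle included. It also had the lowest library total of the comparison, 5848458 estimated counts, and the part of library size was not tested. TGNT rat 3 was the highest in 9. TGNT rat 5 was the lowest in 7 genes and WTNT rat 1 the highest in 7. Without WTNT rat 4 the median log2 fold change of the 31 genes was 0.034, against 0.071 with it.

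**Figure D4:**
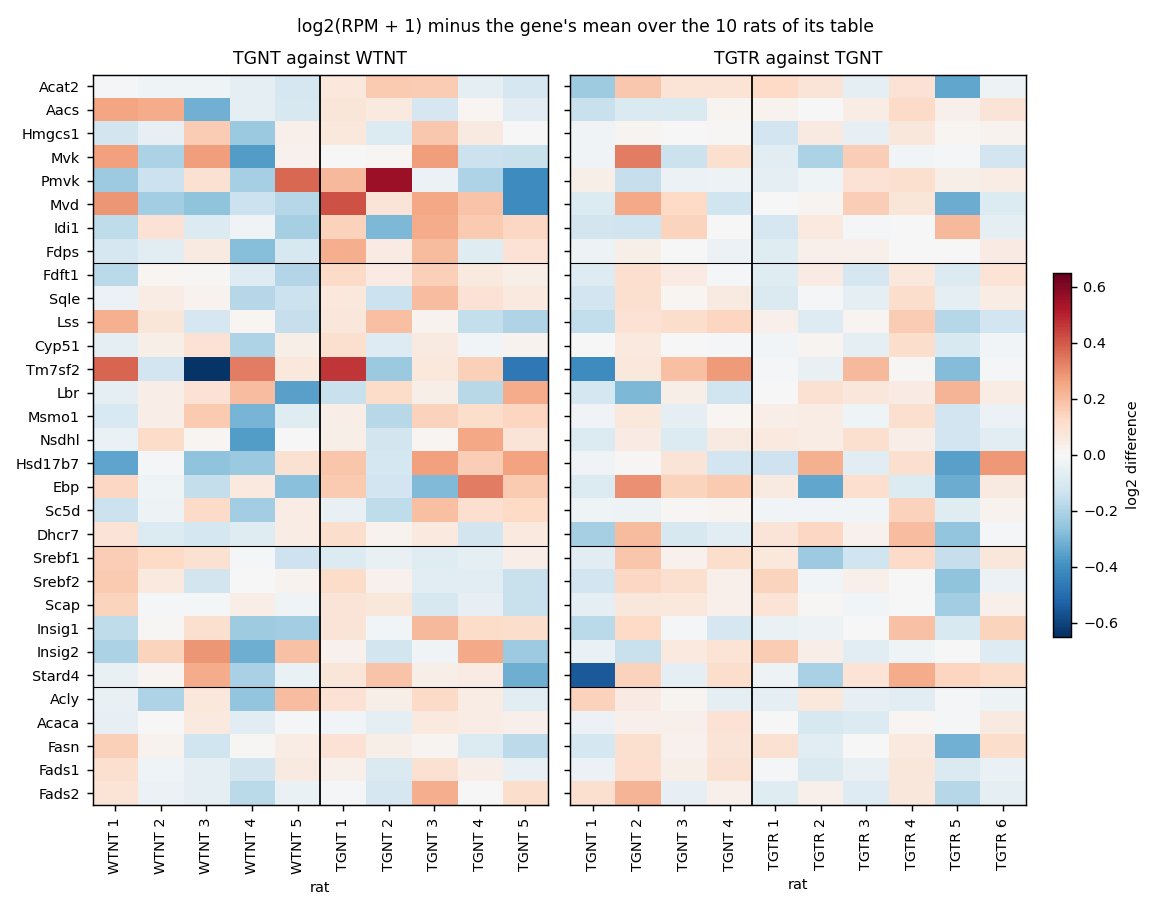
Difference of log2(RPM + 1) from the gene's mean over the 10 rats of its table (colour, blue below the mean and red above it) for the 31 genes (vertical axis, grouped by role) in each rat (horizontal axis), with the genotype comparison on the left and the treatment comparison on the right. WTNT 4 and TGTR 5 are mostly blue, being the lowest rat in 14 and 13 of the 31 genes, and TGTR 4, the highest in 10, is mostly red. In the treatment comparison TGNT 1 is mostly blue too, with 4 of the 31 genes above the mean.

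Markers of other cells also differed between the groups, none of them past an adjusted p of 0.05. All 12 markers of mature oligodendrocytes and myelin, the cells that make much of the brain's cholesterol, had fold changes below 1 in the transgenic rats (median log2 fold change -0.19), and 2 of them (Mbp and Mobp) had an unadjusted p under 0.05. Their summed RPM was 5008 to 11397 over the WTNT rats and 4711 to 8616 over the TGNT rats, so the groups overlapped. The exact permutation p of these sums was 0.286, or 0.75 after adjustment over the 9 marker lists. All 8 microglia markers had fold changes above 1, with a median log2 fold change of 0.092 and 0 at an unadjusted p under 0.05, and their summed RPM was 257 to 279 over the WTNT rats and 274 to 288 over the TGNT rats. The microglia sums overlapped as well, with an exact permutation p of 0.0238, or 0.214 after adjustment over the 9 marker lists. The 10 astrocyte markers were divided, 5 on each side. In bulk tissue, fewer cells of a type and less RNA per cell cannot be told apart, and the part of these markers in the sterol gene values was not tested.

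In the treatment comparison, the 31 genes differed little between TGTR and TGNT rats as well, the largest fold change above 1 being 1.17-fold (Lbr) and the lowest 0.850-fold (Ebp). With the quasi-likelihood test, 0 of 31 passed the thresholds, as did 0 of all genes (0.00%), and all 31 intervals lay within 1.5-fold in either direction. The share of 0 belongs to that test. At the same thresholds edgeR's exact test called 3 of all genes, its likelihood ratio test 5 and DESeq2 3, with 0 of the 31 among them. The paper, which used edgeR, reported genes changed by the treatment. At an unadjusted p under 0.05, 2 of the 31 genes (Aacs and Lbr) were higher in TGTR rats and 0 were lower, against 2.98% and 1.93% of all genes and 4.20% and 2.34% of the 9194 genes with a mean count at least that of the lowest of the 31. The median size of the log2 fold changes, regardless of sign, was 0.057 for the 31 genes and 0.055 for those 9194. The fold change was above 1 for 14 genes and below 1 for 17, against 43.5% of all genes and 49.7% of those 9194 above 1. The lowest adjusted p of the 31 was 0.964. The groups did not overlap in 0 of the 31 genes with TGTR rats above and 0 with TGTR rats below, against 0.594% and 0.553% of all genes (0.794% and 0.620% of the 9194). Without TGTR rats 5 and 6 together, the rats with the most choroid plexus transcripts, 1 gene (Aacs) had an unadjusted p under 0.05.

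Aacs, which activates acetoacetate in the cytosol, had the lowest p. It was at 39.9, 41.2, 41.3 and 44.7 RPM in TGNT rats 1 to 4, and between 44.2 and 48.2 RPM with a median of 45.4 in the TGTR rats. TGTR rats other than rat 2 were above every TGNT rat, and TGNT rat 4 was the one that overlapped. The means were 41.8 ± 2.08 RPM in TGNT and 45.8 ± 1.49 RPM in TGTR rats (SD, n = 4 and 6), the log2 fold change was 0.14 (SE 0.0475, 95% interval 0.033 to 0.24), and the unadjusted p was 0.0136 by edgeR's quasi-likelihood test and 0.019 by an exact two-sided permutation test, which can give no less than 0.00952 for 4 against 6 rats. The unadjusted quasi-likelihood p was 0.0517 with the replicate number as a block, a fit that leaves out TGTR rats 5 and 6. In the genotype comparison its log2 fold change was -0.022.

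Lbr, the lamin B receptor of the inner nuclear membrane, carries a sterol reductase domain. It was at 8.68, 7.54, 9.77 and 8.56 RPM in TGNT rats 1 to 4, and between 9.49 and 11.2 RPM with a median of 9.94 in the TGTR rats. Of the 6 TGTR rats, 5 were above every TGNT rat. The log2 fold change was 0.23 (SE 0.0964, 95% interval 0.017 to 0.43), with an unadjusted p of 0.0362 by the same fit (exact permutation p = 0.019), and the p was above 0.05 with DESeq2, with the likelihood ratio test and the exact test of edgeR, with the replicate block, without TGNT rat 1, 2 or 4 or TGTR rat 2, 3, 4 or 5, and without TGTR rats 5 and 6 together.

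The promoters of these 2 genes, the lowest in p here, are shown with the same capitals. That of Aacs holds neither CCAAT nor GGGCGG, and that of Lbr holds 2 matches of CCAAT and 3 of GGGCGG, of which 2 overlap each other. The match of GGGCGG that begins at -4 runs past the start, and so past the printed bases.

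Aacs, chr12:36817775-36818024, strand minus: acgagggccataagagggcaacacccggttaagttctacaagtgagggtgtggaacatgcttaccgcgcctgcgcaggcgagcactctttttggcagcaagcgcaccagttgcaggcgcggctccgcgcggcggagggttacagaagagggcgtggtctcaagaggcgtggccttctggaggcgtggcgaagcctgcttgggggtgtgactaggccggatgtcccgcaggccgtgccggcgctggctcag
Lbr, chr13:96095710-96095959, strand minus: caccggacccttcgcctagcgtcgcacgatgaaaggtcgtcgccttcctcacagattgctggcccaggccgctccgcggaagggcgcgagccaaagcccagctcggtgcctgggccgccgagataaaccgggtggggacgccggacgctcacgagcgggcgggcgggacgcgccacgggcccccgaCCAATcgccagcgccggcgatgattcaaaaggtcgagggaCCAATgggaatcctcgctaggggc

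Genes often read as reporters of sterol feedback had small fold changes. Hmgcs1 was at 381, 391, 388 and 389 RPM in TGNT rats 1 to 4, and between 355 and 408 RPM with a median of 392 in the TGTR rats. The 4 TGNT rats lay close together inside the TGTR range, and the interval of the log2 fold change, -0.10 to 0.11 around 0.0023, was among the narrowest (quasi-likelihood p = 0.963 and exact permutation p = 1). Sqle was at 75.8, 89.01, 83.5 and 86.1 RPM in TGNT rats 1 to 4, and between 77.3 and 89.6 RPM with a median of 80.8 in the TGTR rats. TGNT rat 1 was the lowest and TGTR rat 4 the highest of 10 intermixed rats (log2 fold change -0.023, SE 0.0561, 95% interval -0.14 to 0.098, quasi-likelihood p = 0.691, exact permutation p = 0.648).

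Idi1 was at 29.4, 29.1, 35.4 and 32.03 RPM in TGNT rats 1 to 4, and between 29.5 and 37.2 RPM with a median of 31.8 in the TGTR rats. TGTR rat 5 was the highest, and the remaining rats overlapped (log2 fold change 0.040, SE 0.0756, 95% interval -0.12 to 0.20, quasi-likelihood p = 0.609, exact permutation p = 0.629). Insig1 was at 85.96, 106, 96.7 and 89.9 RPM in TGNT rats 1 to 4, and between 90.6 and 111 RPM with a median of 96.1 in the TGTR rats. TGTR rats 4 and 6 were above every TGNT rat and the other 4 were among them (log2 fold change 0.069, SE 0.0715, 95% interval -0.086 to 0.22, quasi-likelihood p = 0.355, exact permutation p = 0.419). Fdft1 and Fdps, which had low p in the genotype comparison, had log2 fold changes of -0.027 and 0.018 here, with intervals of -0.15 to 0.095 and -0.073 to 0.11.

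**Figure D5:**
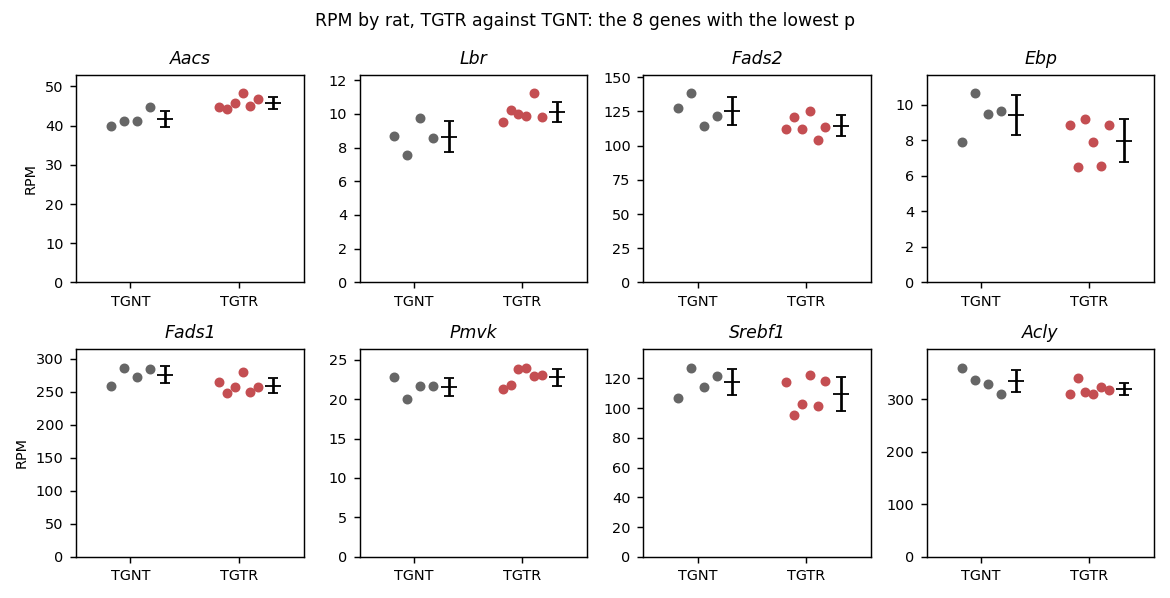
RPM (vertical axes, from 0) of the 8 genes with the lowest p in the treatment comparison, 1 point per rat in rat order, with TGNT in grey, TGTR in red, and the mean and SD of each group in black. The groups overlap in all 8 genes, for Aacs only through TGNT rat 4 at 44.7 and TGTR rat 2 at 44.2 RPM.

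All 5 fatty acid genes had a fold change below 1 in TGTR rats (median log2 fold change -0.065), and 0 had an unadjusted p under 0.05. Fads2 was at 127, 138, 114 and 121 RPM in TGNT rats 1 to 4, and between 104 and 125 RPM with a median of 113 in the TGTR rats. Of the 6 TGTR rats, 4 were below every TGNT rat, and TGTR rat 5 was the lowest. The log2 fold change was -0.12 (SE 0.0631, 95% interval -0.26 to 0.013), with a quasi-likelihood p of 0.0723 (exact permutation p = 0.0857).

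Fads1 was at 259, 286, 273 and 285 RPM in TGNT rats 1 to 4, and between 248 and 279 RPM with a median of 257 in the TGTR rats. Here too 4 TGTR rats were below every TGNT rat (log2 fold change -0.086, SE 0.0496, 95% interval -0.19 to 0.021, quasi-likelihood p = 0.106, exact permutation p = 0.0667). Fits that left out 1 rat gave 2 genes lower at an unadjusted p under 0.05 without TGNT rat 1 (Ebp and Fads1) or TGTR rat 4 (Fads1 and Fads2), and 1 without TGNT rat 3 (Fads2).

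Acly was at 360.4, 338, 329 and 311 RPM in TGNT rats 1 to 4, and between 309 and 342 RPM with a median of 316 in the TGTR rats. TGNT rat 1 was the highest, and the other TGNT rats lay within the TGTR range (log2 fold change -0.065, SE 0.0515, 95% interval -0.18 to 0.046, quasi-likelihood p = 0.23, exact permutation p = 0.19). Fasn was at 611, 710.3, 675 and 702 RPM in TGNT rats 1 to 4, and between 532 and 717 RPM with a median of 676 in the TGTR rats. The lowest value was that of TGTR rat 5, apart from the rest, and without that rat the log2 fold change was 0.018 against -0.037 with it (quasi-likelihood p = 0.648 and exact permutation p = 0.714 with it). Acaca had a log2 fold change of -0.048.

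Srebf1 was at 107, 127, 115 and 122 RPM in TGNT rats 1 to 4, and between 95.1 and 122 RPM with a median of 110.3 in the TGTR rats. Of the 6 TGTR rats, 3 were below every TGNT rat and the other 3 were among them (log2 fold change -0.099, SE 0.0769, 95% interval -0.26 to 0.068, quasi-likelihood p = 0.222, exact permutation p = 0.238). Srebf2 was at 504, 604, 591 and 564 RPM in TGNT rats 1 to 4, and between 459 and 608 RPM with a median of 546 in the TGTR rats. TGTR rat 1 was the highest and TGTR rat 5 the lowest of all 10 rats (log2 fold change -0.057, SE 0.0743, 95% interval -0.22 to 0.10, quasi-likelihood p = 0.46, exact permutation p = 0.486). Scap, Insig2 and Stard4 had log2 fold changes of -0.044, 0.017 and 0.13.

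Ebp was at 7.89, 10.6, 9.47 and 9.66 RPM in TGNT rats 1 to 4, and between 6.49 and 9.21 RPM with a median of 8.37 in the TGTR rats. TGTR rats 2 and 5 were below every TGNT rat, and TGNT rat 1 lay among the TGTR rats (log2 fold change -0.23, SE 0.131, 95% interval -0.52 to 0.049, quasi-likelihood p = 0.0971, exact permutation p = 0.105). Without TGNT rat 1 its log2 fold change was -0.31. Pmvk, the phosphomevalonate kinase, was at 22.9, 19.96, 21.6 and 21.7 RPM in TGNT rats 1 to 4, and between 21.3 and 23.99 RPM with a median of 22.98 in the TGTR rats. Of the 6 TGTR rats, 4 were above every TGNT rat, by little (log2 fold change 0.084, SE 0.0639, 95% interval -0.055 to 0.22, quasi-likelihood p = 0.213, exact permutation p = 0.133). The other sterol and mevalonate genes had log2 fold changes between -0.12 (Mvk) and 0.084 (Dhcr7), with intervals that spanned 0.

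TGTR rat 5 was the lowest of the 10 rats in 13 of the 31 genes. It had the most choroid plexus transcripts and the lowest library total of the comparison, 9215039 estimated counts. TGTR rat 4, the rat with the most blood transcripts, was the highest in 10. TGNT rat 2 was the highest in 9. TGNT rat 1, which had no excess of choroid plexus transcripts, was above the mean of the 10 rats in 4 of the 31 genes, against 7 for TGTR rat 5. All 8 choroid plexus markers had fold changes above 1 in TGTR rats (median log2 fold change 3.63), and 4 had an unadjusted p under 0.05 (2.98% of all genes were higher at that threshold), with TGTR rats 5 and 6 far above the rest. The median of their summed RPM was 6.10 in TGTR and 12.5 in TGNT rats (exact permutation p = 0.667), and Ttr had 10, 11, 11 and 27 counts in TGTR rats 1 to 4, below the 39 to 127 of the TGNT rats. All 12 myelin markers had fold changes above 1, with a median log2 fold change of 0.22 and 1 (Ermn) at an unadjusted p under 0.05, while their summed RPM overlapped, at 4493 to 7099 over the TGNT rats and 5289 to 8071 over the TGTR rats. All 10 astrocyte markers had fold changes below 1, with a median log2 fold change of -0.048 and 0 at an unadjusted p under 0.05. In this comparison 43.5% of all genes had fold changes above 1 (49.7% of the 9194). The part of these cells, and of library size, in the values of the 31 genes was not tested.

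The genes around the pathway were described from a further list of 34 genes, of which 30 were in the tables. Of the 18 that act in synthesis, uptake and processing, 13 had fold changes above 1 in TGNT against WTNT rats and 9 in TGTR against TGNT rats, with 0 at an unadjusted p under 0.05 in either. Of the 12 that act in sterol efflux, the liver X receptor response and turnover, 6 and 4 had fold changes above 1. Abcg1, a sterol exporter, was the only one with an unadjusted p under 0.05 in the genotype comparison, at 94.5 ± 6.22 RPM in WTNT and 85.8 ± 2.56 RPM in TGNT rats (log2 fold change -0.13, SE 0.0610). The groups of Abcg1 overlapped, since the lowest WTNT rat was at 86.2 and the highest TGNT rat at 88.1 RPM.

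In the treatment comparison 3 of these 12 genes had an unadjusted p under 0.05 by edgeR's quasi-likelihood test, 2 higher and 1 lower. Of all genes, 2.98% were higher and 1.93% lower at that threshold. Mylip, the ubiquitin ligase that sends lipoprotein receptors to the lysosome, lay between 24.7 and 28.8 RPM without treatment and between 28.4 and 34.4 RPM with it, with a log2 fold change of 0.22 (SE 0.0711) and an unadjusted p of 0.00862. Nr1h2, which encodes liver X receptor beta, lay between 28.5 and 32.04 RPM without and 30.9 and 38.0 RPM with treatment, with a log2 fold change of 0.19 (SE 0.0650) and an unadjusted p of 0.0124. Lpcat3, which loads polyunsaturated chains into phospholipids, lay between 35.98 and 38.6 RPM without and 34.1 and 37.4 RPM with treatment, with a log2 fold change of -0.11 (SE 0.0481) and an unadjusted p of 0.0478. The groups of all 3 overlapped, and the adjusted p was 0.964 for Mylip and Nr1h2 and 0.990 for Lpcat3. The number of these 30 genes at an unadjusted p under 0.05 was 6 when TGTR rat 2 was left out. In the genotype comparison it was 0 without TGNT rat 3, WTNT rat 1 or WTNT rat 4, and 2 without TGNT rat 5.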

How the data were processed

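Hippocampal mRNA of 20 female rats was sequenced from stranded libraries (Kapa Stranded mRNA), 1 library per rat, in the genotype comparison (5 WTNT, 5 TGNT) and the treatment comparison (4 TGNT, 6 TGTR). The labels name the left and the paper's methods the right hippocampus. For each comparison the authors deposited estimated counts per gene symbol from RSEM, which divides reads that match several genes among them, and a signal in RPM that they scaled with TMM factors within the table. The submitters' processing notes list bcl2fastq 2.17, Bowtie2 2.1.0, RSEM 1.2.15, edgeR and the build rn6. The annotation and read filters are not given in the sources used here.

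Rounded estimated counts entered quasi-likelihood fits of edgeR 4.0.16 under R 4.3.3 (TMM factors, two-sided tests), each comparison by itself over all 17168 genes and with no filter on low counts. Adjustment of p followed Benjamini and Hochberg, and a gene was called at an adjusted p under 0.05 and at least 1.5-fold. SE and 95% intervals of log2 fold changes come from the same fits, and means, SD and exact two-sided permutation tests (scipy 1.17.1) from the RPM. The fits were tested on simulated data. The alternatives took edgeR's likelihood ratio or exact test, DESeq2 1.42.0, limma 3.58.1 on log2 RPM with 1 or 0.1 added, other normalizations, filters, a robust fit, a replicate block, and leaving out each rat in turn. Leaving out TGTR rats 5 and 6 together was added after the data were seen.

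Values of every rat, or for TGTR the range and median, are given for the 8 genes with the lowest p in each comparison and for Hmgcs1, Sqle, Idi1, Insig1, Srebf2, Srebf1, Fasn and Fads1. Related genes are named where their unadjusted p was under 0.05. The 31 genes and all lists were chosen with earlier results of these data known. The marker lists covered mature oligodendrocytes, oligodendrocyte precursors, astrocytes, neurons, dentate granule cells, microglia, endothelium, choroid plexus and blood. Promoters are RefSeq sequences of GRCr8, another build than that of the counts, and were matched by symbol. Counts per gene limit the precision of the weakest genes, since the lowest mean of the 31 was 44.2 counts per rat in the genotype and 100.2 in the treatment comparison.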

Additional observations from a re-analysis of the deposited data

Results flagged for a closer look

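Single rats that stood apart from their group were looked for in the RPM of the 31 genes, in the mean level of these genes and in the summed RPM of the marker lists. The measure was the gap to the nearest rat relative to the group's range (Dixon's 95% critical values). Of 164 groups of rats, 11 held such a rat, where chance gives about 1 in 20, or 8.2, and 5 of the 11 were on the 31 genes. In the genotype comparison, Mvd was at 14.6 RPM in WTNT rat 1, with the next WTNT rat at 10.6, and Idi1 was at 65.6 RPM in TGNT rat 2, with the next TGNT rat at 88.6. In TGNT rat 1 the summed RPM of oligodendrocyte precursor markers was 291.8, below the next at 321.5, and that of dentate granule cell markers was 386.4, above the next at 251.4.

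In the treatment comparison, Lss was at 39.2 RPM in TGNT rat 1, below the next TGNT rat at 46.9, and Cyp51 at 204.9 RPM in TGNT rat 2, above the next at 196.8. Scap was at 171.5 RPM in TGTR rat 5, below the next TGTR rat at 198.3. The summed RPM of microglia markers was 307.3 in TGNT rat 3 (next 330.0) and 302.2 in TGTR rat 5 (next 321.2). That of choroid plexus markers was 2855 in TGTR rat 5 (next 137.3), and that of blood markers 1286 in TGTR rat 4 (next 257.8). These are given as values, and their cause was not tested.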

How the results depend on the processing

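The number of the 31 genes called at an adjusted p under 0.05 and 1.5-fold was 0 in every fit of both comparisons, and was also 0 with no fold threshold. In the genotype comparison, 4 genes were higher at an unadjusted p under 0.05 in all 12 other settings (2 to 6 when leaving out 1 rat) and 0 were lower in all of them. The count of fold changes above 1 was 22 to 24 (20 to 25 when leaving out 1 rat), and the log2 fold changes named kept their direction in 283 of 286 fits, the exception being Fads1, between -0.013 and 0.045 when leaving out 1 rat. The number of related genes was 0 to 2 when leaving out 1 rat.

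In the treatment comparison, 1 gene was higher at an unadjusted p under 0.05 with edgeR's exact test, its likelihood ratio test, DESeq2 or without TGTR rats 5 and 6 together, 0 with the replicate block, and 1 to 2 when leaving out 1 rat. The counts of genes lower were 0 to 2, and of related genes 2 to 6, when leaving out 1 rat. Fold changes above 1 numbered 12 to 18 of 31 across the other settings, and the median log2 fold change was -0.030 to 0.015, above 0 with library size only (0.015), with the replicate block (0.0024) and without TGTR rats 5 and 6 together (0.0025), and -0.048 to 0.00061 when leaving out 1 rat. Library size only moved the median of all genes with a mean count of at least 10 from 0.00025 to 0.037. Of 322 fits of the named genes, 15 turned direction: Hmgcs1 was at -0.0015 with limma after adding 1 or 0.1, -0.0048 with upper-quartile factors, -0.0094 without TGTR rats 5 and 6 and -0.016 to 0.023 when leaving out 1 rat. Sqle was at 0.015 with library size only, below that median of all genes, and -0.066 to 0.0051 when leaving out 1 rat, Srebf2 at 0.00050 without TGTR rats 5 and 6, Fasn at -0.081 to 0.018 and Idi1 at -0.00034 to 0.10 when leaving out 1 rat. The cause of these turns was not tested.

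The labels do not say whether equal replicate numbers pair the rats. Deviations from the group means correlated at -0.21 to 0.34 over 5 numbers in the genotype and -0.58 to 0.14 over 4 in the treatment comparison. Of the rats, 2 of 5 WTNT and 0 of 4 TGNT correlated best with their own number, and so few numbers cannot settle the question. With the replicate block, 4 of the 31 genes were higher at an unadjusted p under 0.05 in the genotype comparison and 0 in the treatment comparison, where TGTR rats 5 and 6 have no partner. There 18 of the 31 fold changes were above 1 with the block, against 14 without it, and Hmgcs1 was at -0.012 and Srebf2 at 0.0024. At these depths and group sizes the median SE of the log2 fold changes was 0.0826 and 0.0715. The genes at these medians had 95% intervals of -0.079 to 0.27 (Sc5d, genotype) and -0.086 to 0.22 (Insig1, treatment). Both intervals spanned 0, so log2 fold changes of 0.097 (Sc5d) and 0.069 (Insig1) could not be told from none, before any adjustment. Some larger ones had unadjusted intervals wholly above 0. Examples are Fdft1 in the genotype comparison (0.18, interval 0.049 to 0.31) and Aacs in the treatment comparison (0.14, interval 0.033 to 0.24).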

Other observations

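The TGNT rats of the genotype table and those of the treatment table are different animals of the same genotype, sex and age, in tables that were normalized apart. Their levels were far apart in many of the 31 genes. Idi1 was at 85.9 ± 11.7 RPM (SD, n = 5) in the genotype table and 31.5 ± 2.92 RPM (n = 4) in the treatment table. Hmgcs1 was at 682 ± 45.5 and 387 ± 4.26 RPM, and Msmo1 at 191 ± 17.4 and 118 ± 4.61 RPM. Others lay the opposite way, with Srebf1 at 45.4 ± 1.72 and 118 ± 8.83 RPM, Mvk at 6.91 ± 0.968 and 18.9 ± 2.85 RPM, Mvd at 13.0 ± 2.75 and 25.9 ± 3.39 RPM, and Fasn at 379 ± 27.4 and 674 ± 45.1 RPM. Fads1 was nearly level, at 275 ± 14.6 and 276 ± 12.9 RPM.

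The groups did not overlap between tables in 18 of the 31 genes, and in 59.7% of the 9639 genes with a mean count of at least 40, whose median log2 difference was -0.040 (5th to 95th percentile -0.87 to 0.97). The log2 difference was 1.45 for Mvk and -1.45 for Idi1, against at most 0.34 for any of the 31 genes between the groups of a table. The genes named here were chosen after their values were seen. What separates the tables cannot be told apart from what separates the animals, and no test across the tables was made.

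Of the marker lists not described above, 5 of 8 oligodendrocyte precursor markers, 4 of 9 neuron markers, 1 of 4 dentate granule cell markers, 1 of 5 endothelium markers, 2 of 8 choroid plexus markers and 2 of 3 blood markers had fold changes above 1 in TGNT against WTNT rats. In that comparison 44.3% of all genes had fold changes above 1, and the endothelium gene Ly6c was at 0 in every rat. In TGTR against TGNT rats the counts were 5 of 8 for oligodendrocyte precursors, 2 of 9 for neurons, 2 of 4 for dentate granule cells, 2 of 8 for microglia, 4 of 5 for endothelium and 3 of 3 for blood. The share of all genes above 1 was 43.5% there. The neuron sums ranged from 7669 to 8908 RPM over the WTNT rats and from 7613 to 8406 RPM over the TGNT rats, and in the treatment table from 6464 to 8149 RPM without treatment and from 5935 to 7675 RPM with it, so that the groups overlapped in both.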
